A study of Mus musculus with 288 samples.

Results

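The second day after 2i medium was replaced by serum was examined in single mouse embryonic stem cells, by setting the cells labelled D2 (48 h) against those labelled D1 (24 h). Members were the wells under these labels with more than 200000 reads on genes, more than 2000 genes with a read and under 15% of reads on mitochondrially encoded genes, which gave 93 D2 cells and 50 D1 cells, 143 of the 233 cells that passed among all 288 wells. Cells of every label were described as the line E14 and had been grown in 2i with leukaemia inhibitory factor (LIF). D0 cells (90, at 0 h) were taken in that medium, and D1 and D2 cells after a change to serum with LIF. RNA was sequenced from cells whose DNA was read separately (scNMT-seq). Each time point was 1 plate of 96 wells by its well names, and the labels name no separate cultures, so cells are not replicates of a time point. Differences are therefore given as ratios with the spread between cells, with no test.

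The 2i medium holds inhibitors of the kinases MEK and GSK3, which keep the cells in a naive state of pluripotency with low DNA methylation. After its removal ERK signalling resumes, naive transcription factors such as Nanog, Klf4 and Tfcp2l1 decline and the de novo DNA methyltransferases are expressed. Serum brings BMP ligands, lipids and growth factors. Embryonic stem cells are known for a high glycolytic flux and for the use of serine and threonine as one-carbon sources. The second day was read here against both earlier labels, since a difference between D2 and D1 can be a step away from both or a step back to the level of D0.

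The labels differed in more than time. Hprt, the purine salvage enzyme, had a read in 48 of 50 D1 cells (96.0%, exact Clopper-Pearson 95% interval 86.3 to 99.5%), in 7 of 93 D2 cells (7.53%, 3.08 to 14.9%) and in 9 of 90 D0 cells (10.0%, 4.68 to 18.1%), intervals that cover counting error only. At least 1 of 4 Y-linked genes had a read in 48 D1 cells, 5 D2 cells and 3 D0 cells. Of the reads on the ferritin light chain gene Ftl1 and its near-identical copy Ftl2, the median share on Ftl2 was 0.397% in D1, 66.01% in D2 and 63.3% in D0. The median log2 ratio of D2 over D1 was 0.48 for genes of chromosome 8, -0.26 for chromosome 11 and -0.36 for chromosome 14, against 0.01 to 0.19 for the other 16 autosomes, while D2 over D0 gave -0.05, -0.05 and -0.11 for those 3 chromosomes. Chromosome X was at 0.26 in D2 over D1 and 0.03 in D2 over D0. The 2 D1 cells without an Hprt read had Ftl2 shares of 63.98 and 66.2%. All labels name the line E14, but the time point, the plate and a different line or clone in D1 cannot be told apart, which bears on every ratio that contains D1 and on every class built from them. D0 values or ratios of D2 over D0, in which no D1 cell enters, are given for most of the lists and genes described in detail. That ratio was lower for longer transcripts, with a Spearman correlation with transcript length of -0.38 over 8528 genes. With the share of G and C bases it was 0.26. The correlation with length was -0.41 for D1 over D0 and -0.01 for D2 over D1. The cause was not tested.

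**Figure D1:**
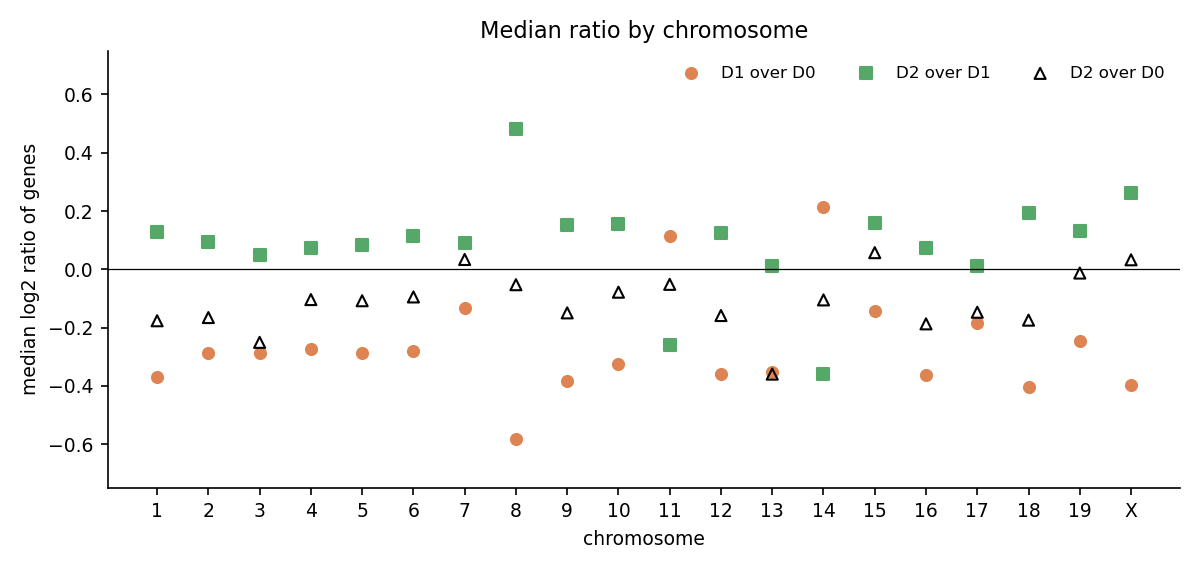
Median log2 ratio of the genes of each autosome and of chromosome X (mean CPM + 10), for D1 over D0 (circles), D2 over D1 (squares) and D2 over D0 (triangles). Chromosomes 8, 11 and 14 lie apart in both ratios that contain D1, at 0.48, -0.26 and -0.36 in D2 over D1, and not in D2 over D0. Chromosome X, at 0.26 in D2 over D1 and 0.03 in D2 over D0, also lies outside the range of the other 16 autosomes in D2 over D1.

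D1 cells were the deepest, with a median of 7956162 reads against 2162090 in D2 and 1610759 in D0. D2 cells held the fewest genes, with a median of 4744 genes with a read against 10676 in D1 and 9002 in D0, and 3956, 8047 and 7824 when each cell was thinned to 200000 reads. Fewer detected genes and less RNA per cell cannot be told apart here. Counts were expressed as CPM, the reads of a gene scaled to a total of 1e6 reads on genes in the cell, and the log2 ratio between the means of a pair of labels was taken after adding 10 CPM, for the 8642 genes with a mean of at least 10 CPM over the labels. By means over cells, 1147 genes (13.3%) were at least 2-fold higher and 894 (10.3%) at least 2-fold lower in D2 than in D1, around a median log2 ratio of 0.09. In D2 over D0, 9.78% of the genes were higher and 20.1% lower. The counts of every gene list are to be read beside these shares.

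Means and medians over cells differed in level. With medians the log2 ratio of D2 over D1 had a median of -1.51 over the 5941 genes whose medians averaged at least 10 CPM over the labels. Most of these genes thus stood lower in the median D2 cell, and a higher median is the stricter measure. Of the 1147 genes with a higher mean, only 250 also had a higher median over cells, and 156 a median at least 2-fold higher. In 687 of them the median D2 cell was below the median D1 cell, so that the higher mean came from a part of the cells. Of the 894 lower genes, 885 also had a lower median, a share to be read beside that general shift. Genes away from both earlier labels, at least 2-fold higher in D2 than in D1 and than in D0, numbered 387, and 51 of these met the limit in means and in medians. On the lower side there were 459 such genes, of which 368 met it in both. For genes with a higher mean, the medians are therefore given as well, or it is said that only the mean was higher. The study describes a distinct cluster of D2 cells, potentially under more stress, with Sod1, Prdx6, Mt1 and Ftl1 among its markers. D2 cells were not divided here.

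**Figure D2:**
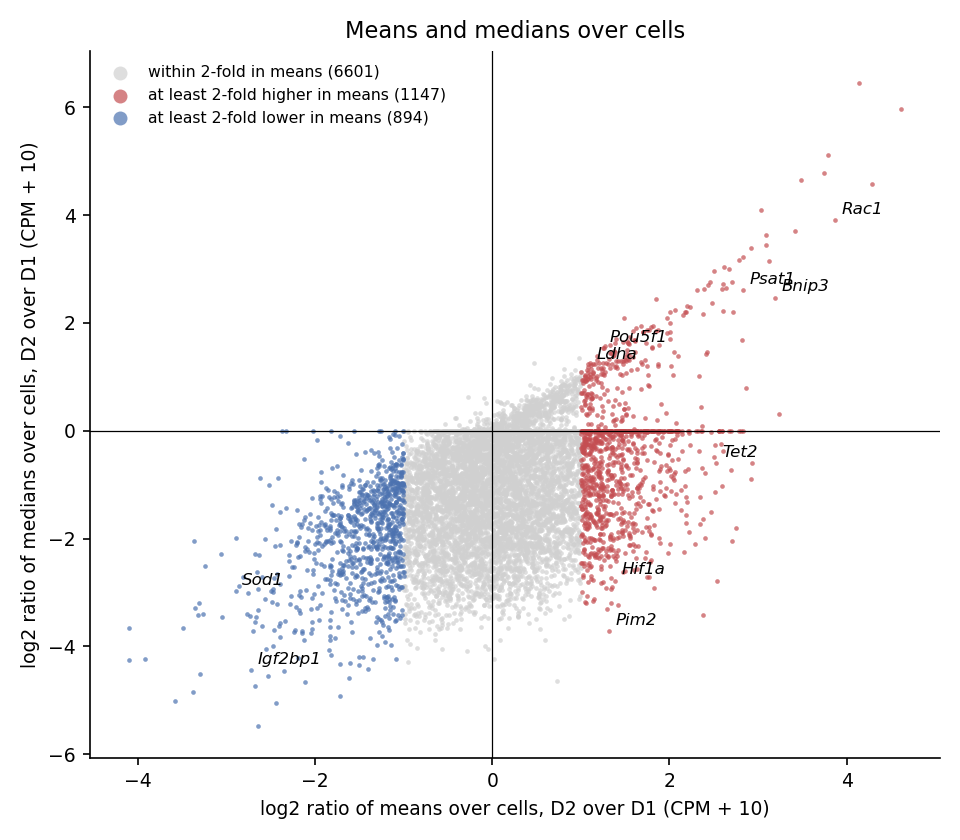
Log2 ratio of D2 over D1 for 8642 genes, from means over cells (horizontal) and from medians over cells (vertical), each with 10 CPM added. Of the 1147 genes at least 2-fold higher in means, 250 have a median above 0 on the vertical axis, while 885 of the 894 lower genes lie below 0.

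Of the 717 genes at least 2-fold higher in D1 than in D0 (8.3%), 205 persisted, with D2 within 2-fold of D1 and still at least 2-fold above D0. A further 14 went on to at least 2-fold above D1, 217 faded to within 2-fold of both labels, 252 returned by at least 2-fold to within 2-fold of D0, 18 returned in part and 11 passed to at least 2-fold below D0. Of the 1707 genes lower in D1 (19.8%), 821 persisted, 70 went on, 418 faded, 355 returned, 23 returned in part and 20 passed to at least 2-fold above D0. First-day gains and losses differed in what became of them. Of the higher genes 30.5% were kept (persisted or went on) and 39.2% came back, wholly, in part or past D0. Of the lower genes 52.2% were kept and 23.3% came back. These groups also differed in make-up. Of the annotated higher genes 20.6% share at least 30% of their 31-base words with other genes, which makes their counts uncertain. That share was 5.55% of the lower genes and 8.06% of all. Median transcript lengths were 1809 bases for the higher and 4445 for the lower genes. Whether this bears on what came back was not tested. Genes within 2-fold of D0 at 24 h and at least 2-fold away from D1 at 48 h numbered 735 on the higher and 543 on the lower side. Both steps share the D1 cells, so a gene that stands apart in those cells alone appears as a first-day difference that returned.

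**Figure D3:**
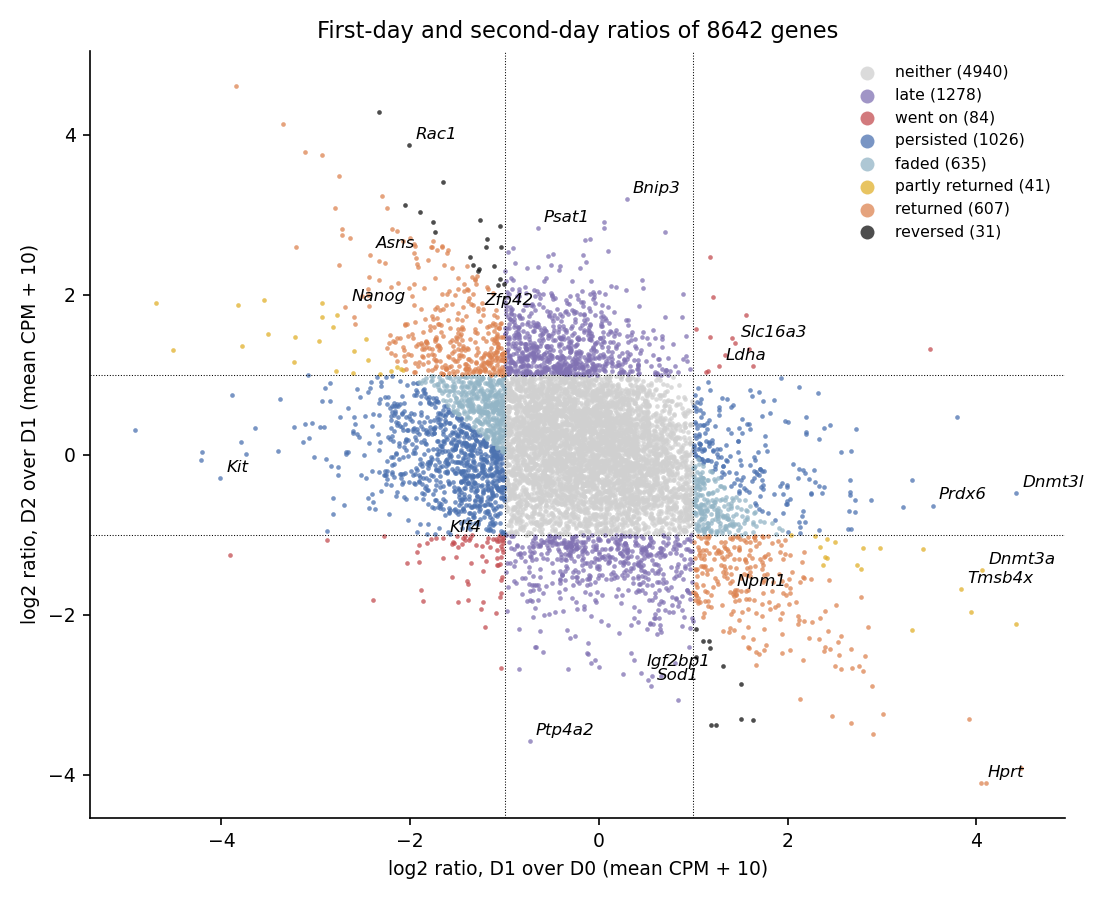
Log2 ratio of D1 over D0 (horizontal) and of D2 over D1 (vertical) for 8642 genes, from means over cells with 10 CPM added; colours give the class of each gene with its number, and dotted lines mark 2-fold. Returned genes lie at the upper left (Asns, Nanog) and lower right (Npm1, Hprt), persisting genes near 0 on the vertical axis (Dnmt3l, Prdx6, Kit) and late genes near 0 on the horizontal axis (Bnip3, Psat1, Sod1, Ptp4a2).

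Part of the genes of serine synthesis and of the ATF4 response were higher at 48 h. ATF4 is the transcription factor that switches on amino acid synthesis and uptake when amino acids are short or unfolded proteins accumulate. Of 18 measured members of this list, 6 were at least 2-fold higher in D2 than in D1 and 0 lower, with a median log2 ratio of 0.77. Against D0, 6 were higher and 1 lower, with a median of 0.90, beside 9.78% of all genes higher and 20.1% lower in that ratio.

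Psat1, the aminotransferase of serine synthesis (chromosome 19, 15904678 to 15947337 in GRCm38), was read at 0, 236 and 1030.1 CPM in the lowest, median and highest D1 cell and at 0, 1494 and 11111 CPM in D2. In D0 these values were 0, 335 and 1564 CPM. The means were 255 ± 205 CPM (SD between cells, n = 50) and 1874 ± 1923 CPM (n = 93), a log2 ratio of 2.83, and 76 of 93 D2 cells were above the D1 median. The ranges overlapped, with 52 D2 cells above the highest D1 cell and 17 below the D1 median. Psph, the phosphatase of the same pathway, had medians of 41.6 CPM in D0, 22.4 in D1 and 79.1 in D2 and a log2 ratio of 1.61. Phgdh, its first enzyme, had medians of 41.4, 80.1 and 374 CPM and a ratio of 1.48, but shares 73.5% of its 31-base words with other genes, so its count is uncertain. Psat1 and Phgdh were at least 2-fold above both earlier labels in means and in medians, and Psph in means.

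Asns, the asparagine synthetase and a classical ATF4 target (chromosome 6, 7675169 to 7693254), followed another course. Its lowest, median and highest cells were at 174, 1467 and 3645 CPM in D0, 0, 158 and 1965 CPM in D1 and 0, 1293 and 8360.0 CPM in D2. It was thus low in D1 only, with a log2 ratio of 2.50 for D2 over D1 and 0.08 for D2 over D0. Nupr1, a stress-induced chromatin protein, also returned in means, from 62.6 CPM in D0 and 6.8 in D1 to 36.4 in D2, with a D2 median of 1.54 CPM. Chac1, which degrades glutathione and is a late ATF4 target, was read in 28 of 93 D2 cells, 6 of 50 D1 cells and 7 of 90 D0 cells, with means of 90, 4.06 and 3.54 CPM. Its higher mean (log2 ratio 2.83) came from those cells, the highest at 1240.2 CPM, and its median was 0 in every label. Atf4 itself was within 2-fold, at 255 and 395 CPM. The amino acid transporters Slc7a5 and Slc7a3 stayed within 2-fold of their means in D1, at log2 ratios of -1.33 and 1.59 in D1 over D0 and -1.34 and 1.13 in D2 over D0.

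The element that ATF4 binds with its C/EBP partners is written TGATGNAA. It was searched on both strands in the 250 bases before each start site of the RefSeq promoter table (GRCm38.p6), where 3.91% of 27025 genes hold it. Of 18 ATF4 list members with a promoter there, 5 hold it, and of the 6 members higher in D2 it was found in 3. These 3 windows are shown because their genes shared the higher mean on the second day and not the course of the first, when Asns and Nupr1 were lower and Chac1 was not. The element is in capitals.
Chac1 at chr2:119351009-119351096, plus strand: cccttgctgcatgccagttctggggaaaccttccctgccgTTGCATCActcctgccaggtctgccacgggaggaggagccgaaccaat
Asns at chr6:7693210-7693272, minus strand: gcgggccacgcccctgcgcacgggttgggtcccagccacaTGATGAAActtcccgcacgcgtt
Nupr1 at chr7:126625533-126625620, minus strand: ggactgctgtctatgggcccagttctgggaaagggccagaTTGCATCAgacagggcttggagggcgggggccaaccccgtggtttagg
Chac1 and Nupr1 hold the same 8 letters, TTGCATCA on the gene strand, at 193 and 110 bases before the start, and Asns holds TGATGAAA at 23 bases. A match is a description of the letters, and binding was not measured.

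**Figure D4:**
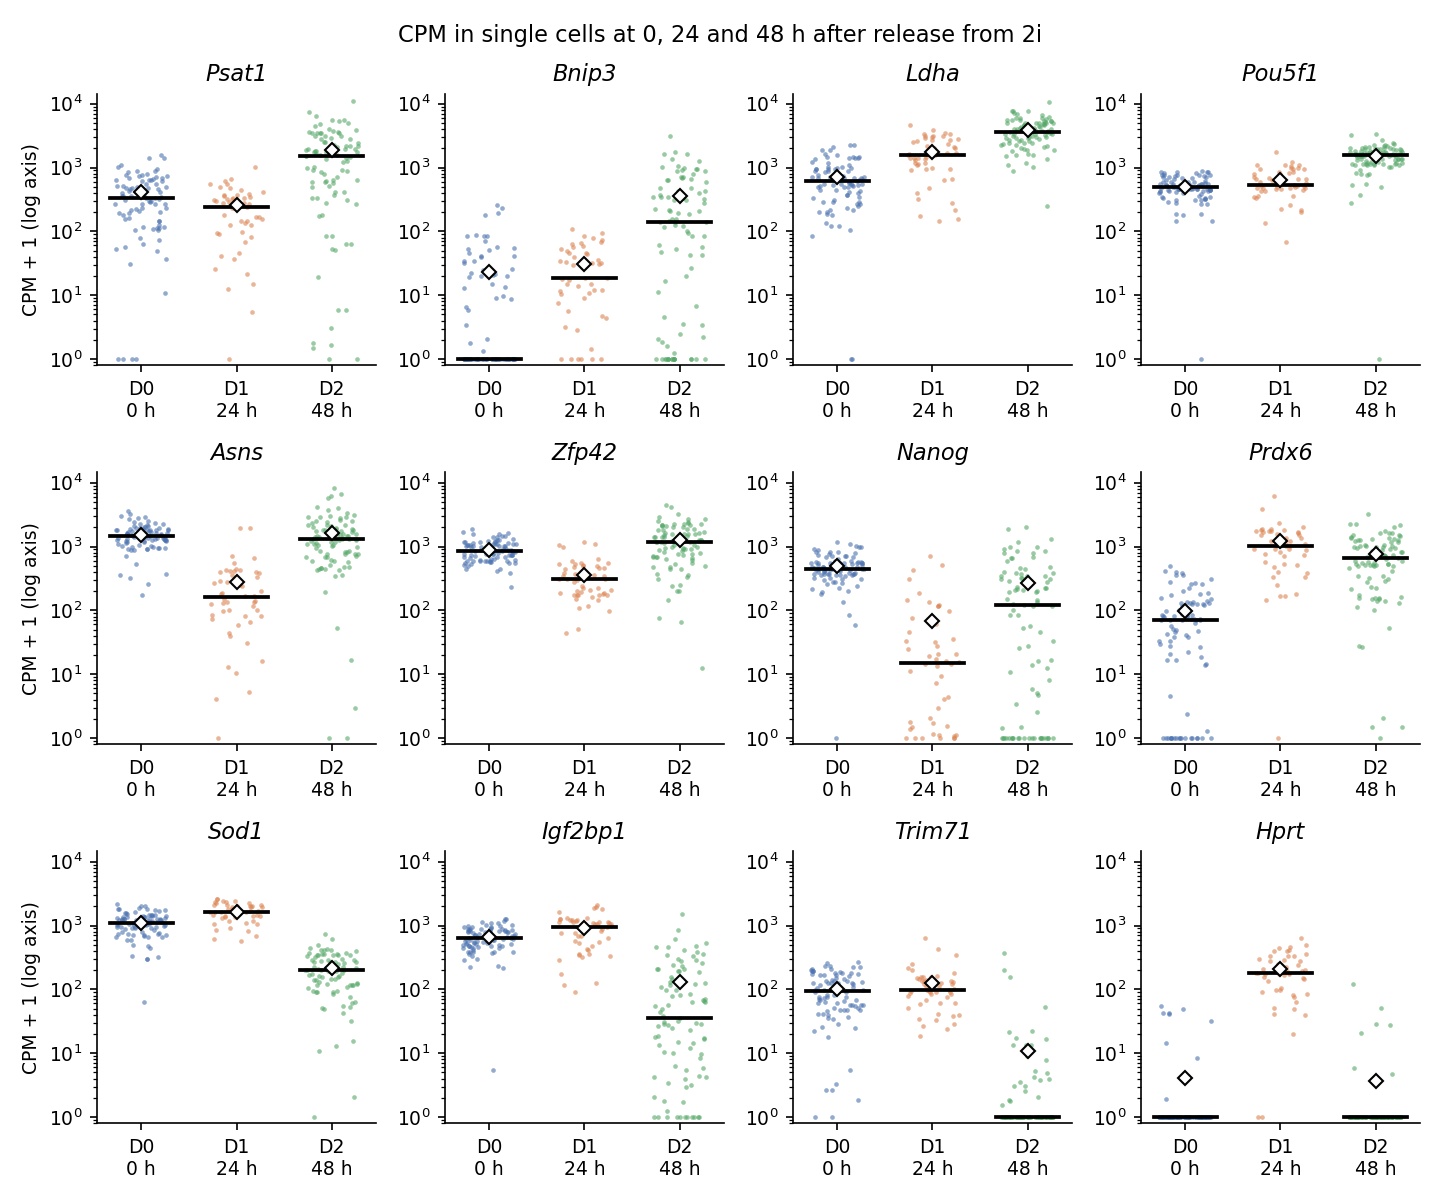
CPM + 1 (log axis) of 12 genes in each cell of D0 (90 cells), D1 (50) and D2 (93); bars are medians and diamonds means over cells. Psat1, Bnip3, Ldha and Pou5f1 are highest in D2, Asns, Zfp42 and Nanog are lowest in D1, Sod1, Igf2bp1 and Trim71 are lowest in D2, and Hprt is read mainly in D1 cells.

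A part of the glycolytic genes was also higher on the second day. Of 18 measured members, 7 were at least 2-fold higher and 1 lower in D2 than in D1, with a median log2 ratio of 0.88. Against D0, 8 were higher and 4 lower. The summed level of the list had a median of 6471 CPM in D0, 8870.5 in D1 and 16248 in D2.

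Ldha, the lactate dehydrogenase subunit that reduces pyruvate to lactate, went on over both days. Its lowest, median and highest cells were at 0, 622 and 2266 CPM in D0, 143, 1558 and 4714 CPM in D1 and 248, 3649 and 10556 CPM in D2, with log2 ratios of 1.28 on the first and 1.11 on the second day. All but 8 of the 93 D2 cells were above the D1 median. Slc16a3, the exporter of lactate, also went on, with means of 20.7, 73.1 and 209 CPM. On the second day its log2 ratio was 1.40, from 0.95 on plate columns 1 to 6 to 1.84 on columns 7 to 12. Tpi1, the triose phosphate isomerase, was at medians of 341, 462 and 1145 CPM, and Pfkl, the liver-type phosphofructokinase, at 74.8, 121 and 255. Eno1 (enolase) was at 1097, 2176 and 4388 CPM, but shares 73% of its 31-base words, and Ldha 34.2%. The D2 level of these 5 genes was at least 2-fold above both earlier labels in means and in medians.

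Hk2, the hexokinase that phosphorylates glucose on entry, was the lower member. It was read at 0, 159 and 522 CPM in D0 and 0, 150.0 and 723 CPM in D1, and at 0, 5.93 and 332 CPM in D2. Its log2 ratio was -2.65 against D1 and -2.65 against D0, and 90 of 93 D2 cells were below the D1 median. Hk1 had already been lower at 24 h (107 CPM in D0, 6.19 in D1) and stayed so at 20.2 CPM. The glucose transporter Slc2a3 returned in part, from 912 CPM in D0 and 159.6 in D1 to 374 in D2 (medians 855, 98.2 and 123), while Slc2a1 kept a higher level, at 159, 341 and 616 CPM.

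Of 12 measured genes of the hypoxia response, 3 were higher in D2 than in D1 and 2 lower (median log2 ratio 0.58), and 4 were higher and 2 lower than in D0. Bnip3, a mitophagy receptor induced by HIF1A (chromosome 7, 138890836 to 138909519), had the largest ratio of them. It was read at 0, 0 and 262 CPM in D0, 0, 17.3 and 107 CPM in D1 and 0, 141 and 3141 CPM in D2, with 52 D2 cells above the highest D1 cell and a log2 ratio of 3.20. The ranges overlapped at the low end, where 17 D2 cells had no read. Hif1a and Pdk1 were higher in means only, with log2 ratios of 1.38 and 1.11 (0.60 and 1.18 against D0) and ratios of medians of -2.78 and -2.28. Bnip3l, the related receptor, returned from 134 CPM in D1 to 30.6 in D2 against 54.8 in D0. The core of the hypoxia response element, ACGTG, stands in the 250 bases before the start in 18.5% of all genes, in 11 of 17 list members and in 2 of the 3 higher ones, Bnip3 and Hif1a. The Bnip3 window is shown as that of the list's largest ratio. Its letters CACGT, in capitals, are the element on the opposite strand and overlap by 4 bases a match on the gene strand, so both lie in the palindrome CACGTG.
Bnip3 at chr7:138909570-138909654, minus strand: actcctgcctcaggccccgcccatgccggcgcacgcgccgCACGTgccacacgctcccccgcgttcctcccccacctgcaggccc

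Core and naive pluripotency genes each held members in both directions. Pou5f1 (Oct4), the core factor of pluripotent cells (chromosome 17, 35506018 to 35510772), was higher on the second day. It was read at 0, 486 and 893 CPM in D0, 66.9, 534 and 1761 CPM in D1 and 0, 1564 and 3404 CPM in D2. The means were 633 ± 323 CPM (SD between cells, n = 50) and 1524 ± 559 CPM (n = 93), with log2 ratios of 1.25 against D1 and 1.58 against D0 and 88 D2 cells above the D1 median. The D1 maximum came from 1 of the 2 cells without an Hprt read. Among the other 48 it was 1106 CPM, and 77 D2 cells exceeded it, against 28 above the maximum of all D1 cells. Its partner Sox2 was lower, at medians of 55.9, 49 and 5.5 CPM and a log2 ratio of -1.20. Zfp281, a repressor of Nanog, was at 79.6, 67.9 and 0 CPM (log2 ratio -1.79). Utf1 and Dppa2, both higher at 24 h (log2 ratios 2.88 and 2.12), persisted at 2.32 and 1.94 above D0. Of the 10 core genes, 1 was higher and 2 lower in D2 than in D1, and 5 were higher and 3 lower than in D0.

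Of 16 genes of the naive network, 12 were at least 2-fold lower in D1 than in D0 (median log2 ratio -1.80). Between D1 and D2, 6 were higher and 2 lower (median 0.64), and 7 were at least 2-fold below D0 at 48 h. By means, Fbxo15, Tcl1, Nanog, Zfp42 and Esrrb returned to within 2-fold of D0. By medians, all of these but Zfp42 were still at least 2-fold below D0, at log2 ratios from -2.62 to -1.24. Zfp42 (Rex1), a marker of the naive state, was at 228, 853 and 1868 CPM in D0, 42.5, 304 and 1182 CPM in D1 and 11.6, 1190.1 and 4465 CPM in D2. Its log2 ratio of 1.79 stood at 1.31 after the median of chromosome 8 was subtracted, and 85 D2 cells were above the D1 median. Without the 2 D1 cells that lack an Hprt read, the highest D1 cell was at 1059 CPM.

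Nanog was at 0, 445 and 1178 CPM in D0, 0, 13.9 and 711 CPM in D1 and 0, 119.7 and 2019 CPM in D2, a log2 ratio of 1.85 with a wide spread, since 22 D2 cells had no read. The highest D1 cell was 1 of the 2 without an Hprt read, and among the other 48 the highest was at 426 CPM. On the 2 sides of the plate the ratio was 1.42 and 2.52. Tcl1, a coactivator of the kinase AKT, was at medians of 294, 18.8 and 119 CPM. Tfcp2l1, at a median of 1565 CPM in D0 and 32.1 in D1, was higher in D2 in its mean only. Its D2 mean of 220.2 CPM had a median of 0, and its log2 ratio was 0.07 on plate columns 1 to 6 and 3.05 on columns 7 to 12.

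The naive factors Klf4 and Klf5 were lower at 48 h than in both earlier labels. Klf4 was read in 86 of 90 D0 cells, 39 of 50 D1 cells and 19 of 93 D2 cells, with means of 85.9, 20.5 and 4.84 CPM. Klf5 was at means of 207, 117 and 33.7 CPM. Tbx3, Prdm14, Nr5a2 and Klf2 kept the lower level of the first day, at log2 ratios between -2.67 and -1.35 against D0, and Nr0b1 its higher mean (1.26). Among 12 surface genes of 2i cells, 8 were lower in D1 than in D0, 5 were higher and 0 lower in D2 than in D1 (median log2 ratio 0.59), and 7 were lower and 1 higher in D2 than in D0 (median -1.57). Kit, Ly6a, Aqp3 and Trpm1 persisted at log2 ratios of -4.30, -4.61, -4.17 and -4.28 against D0, whereas Cd9, a tetraspanin, returned, at medians of 428, 115 and 471 CPM.

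Signalling genes showed single members rather than whole lists. The 3 PIM kinase genes, targets of LIF and STAT3, made up all the members of that list that were at least 2-fold higher, of 11 measured. Pim3 was higher in mean and median, at medians of 96.9, 109 and 273 CPM (log2 ratio 1.10). Pim2 had means of 6.2, 175 and 452 CPM but a D2 median of 1.11 against 137 in D1, and Pim1 a D2 mean of 57.7 against 10.6, with medians of 8.25 and 5.41. The receptor genes Lifr and Il6st stayed lower than in D0, at log2 ratios of -1.76 and -1.64.

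Of 9 genes of Nodal signalling, Lefty1, Lefty2 and Smad3 were higher in means than in D1 and 0 lower, and the median of each of the 3 was 0 in D2. Against D0 also 3 were higher and 0 lower. Lefty1, the secreted Nodal antagonist and itself a Nodal target, was read in 36 of 93 D2 cells and 11 of 50 D1 cells, up to 3377 and 423 CPM (log2 ratio of means 2.79). Lefty2 had means of 88.1, 22.4 and 181 CPM. The BMP targets Id1, Id2 and Id3 persisted in their means. The medians of Id1 were 0, 43.3 and 118 CPM and those of Id2 0, 46.8 and 3.18, and 0 of 10 genes of that list was 2-fold away from D1 in either direction.

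Feedback inhibitors of ERK signalling divided. Spry2 was read at 1.47, 95 and 599.9 CPM in D1 and at 0, 0 and 218 CPM in D2, with 89 D2 cells below the D1 median and a log2 ratio of -2.77. Against D0 that ratio was -2.11, and Spred1 was at -1.32. The immediate targets Dusp6, Spry4, Myc, Egr1 and Ier3, all higher at 24 h, kept their means within 2-fold of D1, although the D2 median of each was 0 (for Egr1 also the D1 median). Among formative genes, Otx2 was higher in its mean only (12.7 CPM in D0, 8.12 in D1, 38.4 in D2, read in 31 of 93 cells), Sox11 was at 0.0246, 43.9 and 1.73 CPM and Cd24a was at 94.8, 43.5 and 3.88 CPM. Fgf5 had means of 0, 1.47 and 0.529 CPM and Pou3f1 of 0.0888, 12.2 and 0.415.

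The first-day level of the de novo methylation genes was kept for 2 of 3. Dnmt3l, the catalytically inactive cofactor, was at 0, 0 and 201 CPM in D0, 78, 672 and 2160.1 CPM in D1 and 0, 374 and 2775 CPM in D2, with a log2 ratio of -0.48 on the second day and 3.94 against D0. Dnmt3b had means of 114, 367 and 464 CPM, but a lower median in D2 (148 CPM) than in D1 (319). Dnmt3a returned in part, at 0, 0 and 144 CPM in D0, 0, 169.6 and 1118 CPM in D1 and 0, 32.2 and 899.8 CPM in D2, a log2 ratio of -1.44. The ranges of D1 and D2 overlapped for each of the 3 genes.

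Among 7 genes that maintain or remove methylation, 4 had a mean at least 2-fold higher and 0 lower (median log2 ratio 1.03), and against D0 2 were higher and 1 lower. Medians over cells did not follow: with them the list's median ratio was -0.76. Tet2, a 5-methylcytosine dioxygenase, had means of 286, 66 and 427 CPM and medians of 272, 31 and 17.2, and 25 D2 cells exceeded the highest D1 cell. Tet1 had means of 558, 445 and 919 CPM and medians of 612, 434 and 350.1. Uhrf1, which guides the maintenance methyltransferase to hemimethylated DNA, stayed lower than in D0, at 913, 333 and 273 CPM.

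Antioxidant genes divided. Of 21 measured, 6 were at least 2-fold lower and 0 higher in D2 than in D1 (median log2 ratio -0.31), whereas 5 were higher and 3 lower in D2 than in D0 (median -0.22). Of all genes 10.3% were lower than in D1, and 9.78% were higher and 20.1% lower than in D0. Sod1, the cytosolic superoxide dismutase (chromosome 16, 90220754 to 90226329), had the largest ratio of the list. It was at 62.3, 1111 and 2187 CPM in D0, 581, 1628 and 2648 CPM in D1 and 0, 199 and 743 CPM in D2, and no D2 cell reached the D1 median. The means of 1635 ± 516 CPM (SD between cells, n = 50) and 211 ± 136 CPM (n = 93) gave a log2 ratio of -2.89, from -3.05 to -2.72 on the 2 sides of the plate, and -2.34 against D0. Txn1 (thioredoxin) was at medians of 684, 841 and 391 CPM. Nqo1, an NRF2 target, was at 55, 176 and 0 CPM, and Ftl1 at 383, 1756 and 552, where the D1 level goes with the low Ftl2 share of those cells. Other members of the list kept a higher first-day level. Prdx6, a peroxiredoxin with phospholipase activity, was at 0, 69.9 and 493 CPM in D0, 0, 1033 and 6172 CPM in D1 and 0, 671 and 3267 CPM in D2, and Gpx4 (which shares 66.8% of its words with other genes), Fth1 and Hmox1 also persisted (log2 ratios 1.33, 1.35 and 2.67 against D0). The metallothionein genes Mt1 and Mt2, on chromosome 8, whose products bind zinc and copper, were lower than in either earlier label. Mt1 was at medians of 833, 956 and 276 CPM and Mt2 at 170.4, 155 and 68.8.

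Some genes for RNA-binding and chromatin proteins of early embryonic cells were lower at 48 h. Of 7 measured genes of the LIN28, TRIM71 and HMGA group, 4 were lower and 1 higher (median log2 ratio -1.05, and -1.58 against D0). Igf2bp1, an mRNA-binding protein that stabilises its targets (chromosome 11, 95957163 to 96005940), was at 4.48, 629 and 1283 CPM in D0, 90.4, 950.1 and 2131 CPM in D1 and 0, 34.1 and 1491 CPM in D2. All but 1 of the D2 cells were below the D1 median, and the log2 ratio of -2.72 stood at -2.46 after subtraction of the median of chromosome 11. Trim71, a let-7 target that represses mRNAs, was at 0, 93.3 and 266 CPM in D0, 17.4, 97.6 and 627 CPM in D1 and 0, 0 and 369 CPM in D2, and was read in 26 of 93 D2 cells against all 50 D1 cells. Hmga2, an architectural chromatin protein, had means of 41, 33.5 and 1.4 CPM.

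Of 13 genes of H3K9 methylation and TRIM28-dependent silencing, 5 were lower and 1 higher than in D1, and 4 were lower and 0 higher than in D0. Atrx, a remodeller that deposits histone H3.3 in heterochromatin, was at 0.284, 632 and 2207 CPM in D1 and 0, 39.5 and 1988 CPM in D2, against a median of 552 CPM in D0 (log2 ratios -2.23 and -2.02). Cbx3 went on downwards at means of 128, 54.9 and 16.5 CPM, Cbx5 was at 698, 609.8 and 281, and Cbx1 returned from 978 CPM in D1 to 254, against 262 in D0. These 3 genes encode the HP1 proteins that bind methylated H3K9. Of 15 Polycomb genes, 3 were lower and 0 higher than in D1, and 4 lower and 1 higher than in D0, against 10.3% of all genes lower than in D1 and 20.1% lower than in D0. Suz12 and Ezh2, subunits of the complex that methylates H3K27, had means of 215 and 349 CPM in D1, 64 and 145 in D2, and 288 and 348 in D0. The log2 ratio of Suz12, on chromosome 11, was -1.60, and -1.34 after subtraction of that chromosome's median.

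Many ribosomal protein genes were higher at 24 h and fewer were lower again at 48 h. Of 82 cytosolic ribosomal protein genes, 48 were at least 2-fold higher in D1 than in D0 and 3 lower, and 30 were lower and 3 higher in D2 than in D1. The list's medians were 1.09 and -0.74, and 0.38 for D2 over D0. Their summed level had a lowest, median and highest cell of 53833, 99145 and 258147 CPM in D1 and of 44697, 72743 and 167235 CPM in D2, so the labels overlapped. Near-identical copies make most of this list uncertain. Of the 82 genes, 55 share at least 30% of their 31-base words with other genes, as do 35 of the 48 higher at 24 h, 20 of the 30 lower at 48 h and all 3 higher at 48 h (Rps3a3, Rps3a2 and Rpl24).

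Of 16 genes of ribosome biogenesis, 3 were higher and 0 lower in D1 than in D0, 5 were lower and 1 higher in D2 than in D1, and 2 were higher and 3 lower in D2 than in D0 (median -0.03). Ncl (nucleolin) was at 525, 1261 and 2392 CPM in D0, 719.8, 2614 and 10431 CPM in D1 and 67.5, 622 and 1616 CPM in D2, and Npm1 (nucleophosmin), on chromosome 11 and sharing 45.5% of its words, at medians of 3542, 8988 and 2776 CPM. For both genes no D2 cell was above the D1 median. Gnl3, Nop58 and Fbl were lower than in both earlier labels, at log2 ratios of -1.45, -1.17 and -1.23 against D0. Of 18 translation initiation factors 3 were lower and 0 higher than in D1, beside 10.3% and 13.3% of all genes. Against D0, 8 were lower and 3 higher, beside 20.1% and 9.78%. Eif2s2, Eif5b and Eif5 had log2 ratios of -2.17, -1.90 and -1.39 on the second day and -1.20, -1.52 and -1.49 against D0, while Eif5a and Eif6 kept their higher first-day levels.

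Mitochondrially encoded mRNAs were lower at 48 h, 7 of 10 by at least 2-fold (median log2 ratio -1.23, and -1.44 against D0). Of the 10, 5 share at least 30% of their words with other genes, among them 4 of the 7, and are uncertain. The summed level of the list was 7192, 31973 and 100994 CPM in the lowest, median and highest D1 cell and 7.13, 12379.8 and 27344 in D2. mt-Nd1 had means of 9859.6, 7888 and 3659 CPM and mt-Nd4, which shares 62.8% of its words with other genes, of 1645, 1299.9 and 277. Of 77 nuclear genes for respiratory chain subunits, 3 were higher and 8 lower than in D1, with a median of -0.13. Over all genes 13.3% were higher and 10.3% lower. Against D0, 2 of the 77 were higher and 2 lower, beside 9.78% and 20.1% of all genes. The mitochondrial share is also a limit of the filter on cells, and with every cell above 10000 reads the median log2 ratio of D2 over D1 was -1.16.

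Genes of the S100, keratin and actin group were in part higher on the first day, and the gain was kept in some and lost in others. Of 26 measured, 13 were higher and 1 lower in D1 than in D0, and 8 were lower and 4 higher in D2 than in D1. In D2 over D0, 9 were still or newly higher and 0 lower (median 0.49). Tmsb4x, the actin-sequestering thymosin, was at means of 38.2, 678 and 205 CPM, and S100a6 at 5.89, 329 and 68.4. The S100a6 ratio was -3.06 on plate columns 1 to 6 and -0.84 on columns 7 to 12. S100a11, Lgals1, Actg1, Tmsb10 and Myl9 returned to within 2-fold of D0, with S100a11, Actg1 and Tmsb10 sharing 48.9, 57.1 and 52.4% of their words with other genes. By means, S100a10, Anxa1, Lgals3 and Cnn2 persisted, and the higher members were Anxa2, Tagln2, Tpm4 and Krt8, of which only Tagln2 had a higher median. The Krt8 ratio of 1.42 turned to -0.46 when 1 D2 cell was left out.

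**Figure D5:**
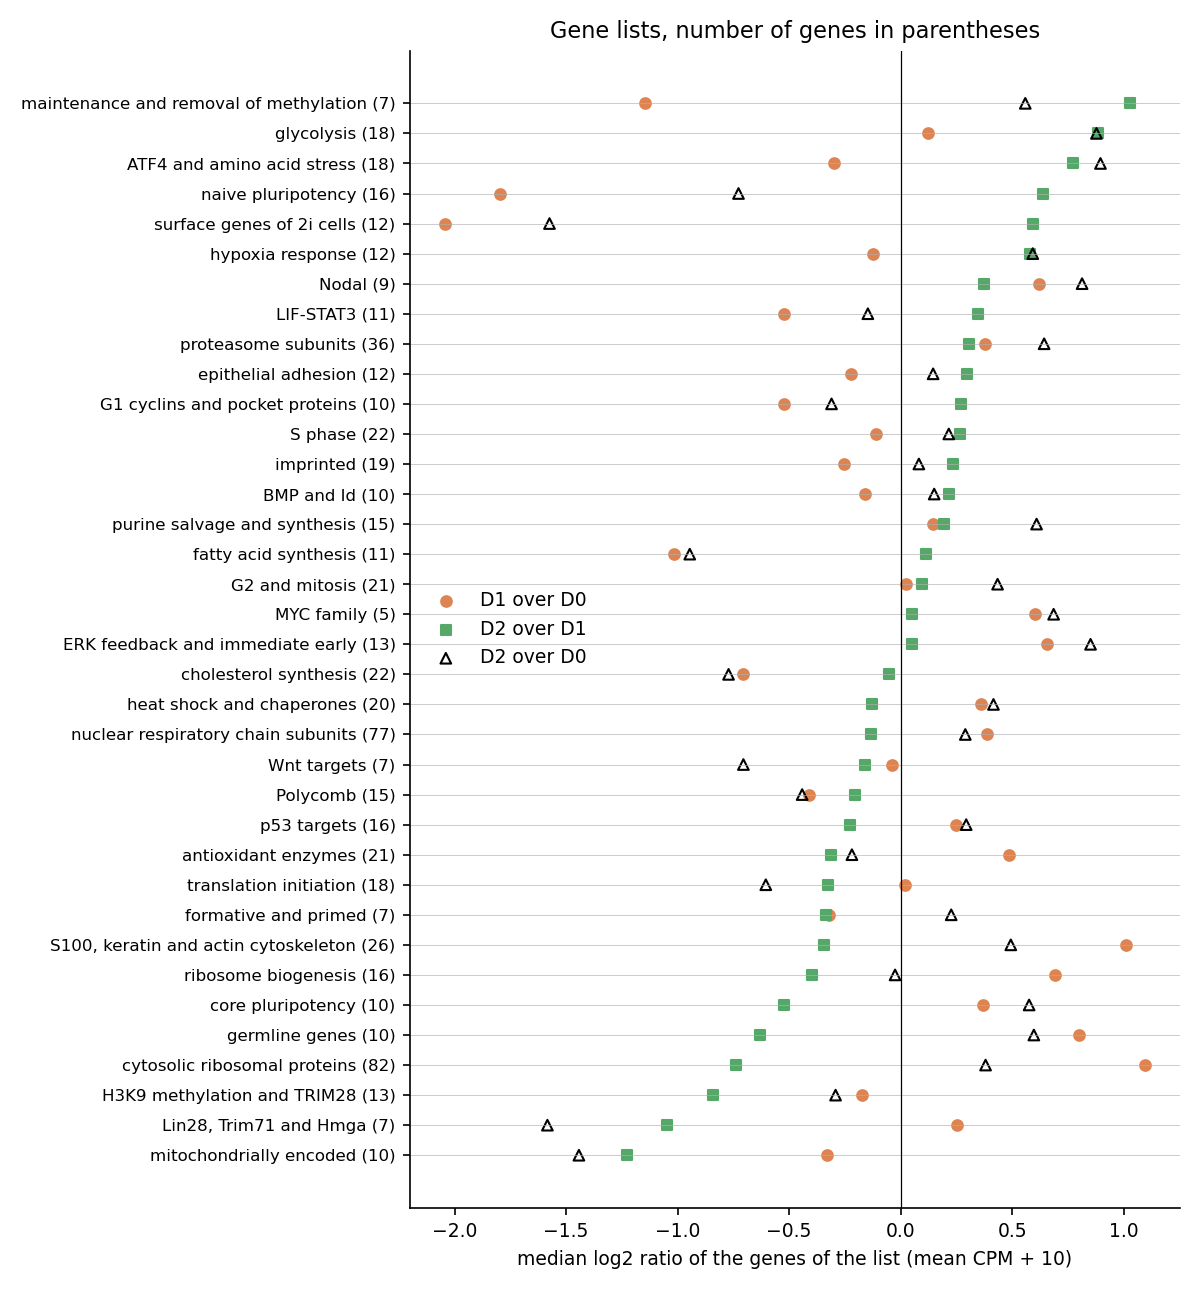
Median log2 ratio (mean CPM + 10) of each gene list with at least 5 measured genes, for D1 over D0 (circles), D2 over D1 (squares) and D2 over D0 (triangles), with the number of genes in parentheses. Glycolysis and the ATF4 list lie to the right in both ratios of D2, the naive and surface lists are left in D1 over D0 and right in D2 over D1, and the mitochondrially encoded and LIN28 lists lie to the left in both ratios of D2.

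Several lists showed little in D2 over D1. Cholesterol synthesis, lower at 24 h in 6 of 22 genes, had 1 higher and 4 lower genes in D2 over D1. Against D0 it stayed at a median of -0.77, with 0 higher and 8 lower. Fatty acid synthesis had 2 higher and 1 lower of 11 and a median of -0.95 against D0. Proteasome subunits (36 genes, 2 higher and 1 lower), heat shock genes (20, 3 and 1), p53 targets (16, 1 and 1), S phase genes (22, 4 and 1) and genes of G2 and mitosis (21, 2 and 3) had medians between -0.23 and 0.30. Against D0, proteasome subunits had 8 higher and 0 lower genes (median 0.64) and heat shock genes 4 and 0. For p53 targets these counts were 1 and 1, for S phase genes 4 and 0, and for G2 and mitosis 3 and 3. Within them, Ccna2 (cyclin A2) was at medians of 206, 203 and 481 CPM and Rrm1, a subunit of ribonucleotide reductase, at 329, 190.5 and 399. Of 19 imprinted genes 3 were higher and 4 lower, beside 13.3% and 10.3% of all genes. Against D0, 4 were higher and 1 lower, beside 9.78% and 20.1%.

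Germline genes, many of which are silenced by promoter methylation in somatic cells, moved in both directions. Of 10 measured, 5 were higher and 1 lower in D1 than in D0, 2 were higher and 4 lower in D2 than in D1 (median log2 ratio -0.63), and 4 were higher and 1 lower in D2 than in D0 (median 0.60). Hormad1, a protein of the meiotic chromosome axis whose gene shares 42.5% of its words with others, was at medians of 4.51, 59.4 and 20.1 CPM, with a log2 ratio of -1.92 on the second day and -0.11 against D0. Tuba3a, a testis alpha-tubulin gene that shares 48.4% of its words with other genes, was at medians of 90.2, 43.9 and 188 CPM, with ratios of 1.74 and 1.21.

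Large ratios also lay outside the lists. Rac1, the small GTPase of actin dynamics (chromosome 5, 143503634 to 143528036), was at 0.684, 145 and 655 CPM in D0, 0, 11.7 and 428 CPM in D1 and 0, 314 and 4451 CPM in D2, so that it was lower on the first day and passed D0 on the second (log2 ratios -2.01, 3.87 and, for D2 over D0, 1.86). Atp6v1b2 and Adi1, a subunit of the vacuolar proton pump (on chromosome 8) and an enzyme of methionine salvage, were at least 2-fold lower in D1 than in both other labels, at medians of 461, 105 and 516 CPM and of 276, 51.9 and 281. Slc11a1, Mtpn, Slc7a6 and Usb1 had higher means (log2 ratios 3.24, 2.86, 2.70 and 2.69), and for Slc7a6 and Usb1, both on chromosome 8, the ratio of medians was negative. The medians of Slc11a1 were 35.7, 0 and 2.41 CPM and those of Mtpn 238, 107 and 194. The largest ratio among the named genes, that of Eno1b (4.29, and 1.96 against D0), belongs to a gene that shares 88.4% of its words with Eno1 and other copies.

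On the lower side, Ptp4a2, a prenylated phosphatase, was at 2.74, 589.7 and 2194 CPM in D0, 5.71, 345 and 893 CPM in D1 and 0, 1.03 and 260.3 CPM in D2, below both earlier labels (log2 ratios -3.58 and -4.32). No D2 cell was above its D1 median. Nap1l1, a histone chaperone, was at medians of 981, 1511 and 178 CPM, also with no D2 cell above the D1 median. Hnrnpa0 and Rtn4, an RNA-binding protein and a reticulon of the endoplasmic reticulum, went on downwards at means of 211, 97.9 and 6.97 CPM and of 340.0, 141 and 24.1. Hprt, Eif2s3y, Ddx3y, Rims2 and Gc were high in D1 alone, at log2 ratios of -4.10, -3.49, -3.35, -3.06 and -2.89, and Hprt, Eif2s3y and Ddx3y are among the genes by which the D1 cells stand apart.

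The labelled cell type was checked against its markers. The embryonic stem cell markers Pou5f1, Dppa5a and Zfp42 were read in at least 92 of 93 D2 cells and in all 50 D1 cells, and Utf1 in 92 and 49. Sox2, Sall4 and Nanog were read in 61, 64 and 71 D2 cells and in 48, 49 and 44 D1 cells. No list of mesoderm, neurectoderm, fibroblast or 2-cell-like genes had a member at a mean of 10 CPM. The summed fibroblast list had a median of 0 CPM in every label and a highest cell of 112 CPM in D1 and 85.1 in D2, and the neurectoderm list, with Pax6 read in 22 of 50 D1 cells and 3 of 93 D2 cells, a highest cell of 94.8 and 92 CPM. Gata4 and Gata6, defining genes of primitive endoderm, had means under 1 CPM at both times. Lama1 and Lamb1, laminin genes of that list, were at means of 55.1, 5.45 and 22.4 CPM and of 8.95, 15.7 and 27.8, with D2 medians of 0, and the list summed to 259 CPM in its highest D1 cell and 656 in its highest D2 cell. Cdx2 and Eomes, of trophectoderm, had means of 2.83 and 1 CPM in D1 and 0.0171 and 0.0391 in D2, and none of these 4 genes reached a mean of 10 CPM. The trophectoderm list, which includes Krt8 and Krt18, summed to 9105 CPM in its highest D2 cell. Zscan4c, Zscan4d and Zfp352 had no read in any cell.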

How the data were processed

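RNA of single cells was sequenced by scNMT-seq, and the authors deposited 1 table of read counts, as whole numbers by gene, for 3 plates of 96 wells (labels D0, D1 and D2). The submitters' processing notes name HISAT2 and GRCm38. The counting tool and its annotation are not given in the sources used here. Although a description speaks of filtered and normalised values, the deposited counts were whole and unscaled, with differing totals per well. Of 54232 genes, 29287 had a read.

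Wells entered with over 200000 reads, over 2000 detected genes and less than 0.15 of reads on mitochondrial genes. No doublet caller was run, since cells were flow-sorted singly into wells. Counts were divided by the total of each cell (CPM), averaged over cells, and compared as log2(mean CPM + 10) for the 8642 genes at a mean of at least 10 CPM over the labels. Ratios on this scale understate the change of low genes. Each label is 1 plate, and no test, SE or p was computed. Ranges and SDs describe cells, and intervals cover counting error only. A gene counts as higher or lower at 2-fold. Chromosome positions and the share of 31-base words found in other genes came from GENCODE vM21, in which 8528 of the 8642 genes were matched, and genes sharing at least 30% are named as uncertain. Without a stated strand setting, overlapping antisense genes cannot be separated.

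The members and gene lists were chosen with earlier results of these data known. Named genes were the 15 largest ratios in each direction detected in 50% or more of the cells under 1 label, up to 4 per list among those past 2-fold, 4 per class, the genes that the study names for this experiment, the markers, Hprt and the Y-linked genes. The largest ratios left out ribosomal protein genes, Ftl1 and Ftl2, pseudogenes and genes named only by a clone or Gm number. Other list members named in the text, such as Ldha, Eno1, Phgdh, Pfkl and Gpx4, were chosen after their values were seen. The scripts were tested on simulated data. Analyses used Python 3.11.15, numpy 2.4.6, pandas 2.3.3, scipy 1.17.1 and matplotlib 3.10.9, and TMM factors came from edgeR 4.0.16 in R 4.3.3. Alternatives covered scaling, pseudocount, filters, fold, medians, plate columns, chromosomes, near-identical copies and Hprt reads.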

Additional observations from a re-analysis of the deposited data

Results flagged for a closer look

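Wells outside the comparison held an Hprt signal. The 46 D1 wells that failed the filter on cells had 50 Hprt reads among 357724 reads, or 140 CPM of their summed reads, in 11 wells. Failed wells of D0 and D2 had 0 reads among 114562 and 1459044, which allow up to 26.2 and 2.06 CPM (3 reads), so the signal of the D1 cells that passed was also present in the wells of that plate that were left out.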

How the results depend on the processing

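No paired analysis was possible because the 3 labels are 1 plate each and a well number does not pair cells. In 87 of 110 alternative counts the value stayed within 1.5 times that reported and in 23 it did not. Of the list medians, 193 alternative values moved by less than the exact binomial counting interval of the reads, 491 by more and 1 had the opposite sign. For single named genes these were 1217, 1934 and 33. A change of sign was counted only for values at least 2-fold away as reported, so smaller values that changed sign stand among the others. With a pseudocount of 1 CPM, 1724 genes were higher, 1451 lower and 1267 first-day differences came back. With medians over cells the gene set also changed, to the 5941 genes whose medians averaged at least 10 CPM. Of these, 164 were higher and 3871 lower (4.06% of these calls higher, against 56.2% by means), 133 faded and 2771 were late. With a mean of at least 50 CPM, 585 were higher and 456 lower, 477 were kept, 371 came back, 306 faded and 618 were late. At 1.5-fold, 2327 were higher and 1837 lower, 2156 kept and 1887 back, and at 4-fold 142 and 124, with 133 kept, 66 back, 160 faded and 200 late. Thinning each cell to 200000 reads gave 1161 higher and 896 lower, and restricting D1 to cells with an Hprt read and D0 and D2 to cells without gave 1233 and 925. With reads summed over cells, TMM scaling moved the median log2 ratio of D1 over D0 from -0.20 to -0.03 and that of D2 over D1 from 0.03 to 0.09. Subtracting chromosome medians gave 935 higher and 972 lower. Without near-identical copies 1051 were higher and 770 lower, and without chromosomes 8, 11, 14, X, Y and the mitochondrion 879 and 631. The alternatives on chromosomes and copies were chosen after seeing the data.

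Of 2976 alternative values for the 157 named genes past 2-fold, 2933 kept their direction and 2813 stayed past 2-fold, and 93 of the 157 genes stayed past 2-fold under every alternative run. Slc16a3, Klf4, Lefty1 and Chac1 were among those that did not. A turn of direction was looked for only in lists and genes at least 2-fold away as reported, so other lists may also have turned. With medians over cells the direction turned for the list of maintenance and removal of methylation (-0.76) and for Adk (-0.13), Arhgdib (-0.0271), Ctnnb1 (-0.86), Dnajb1 (-0.30), Eda2r (-0.26), Eif2s3x (-1.72), Elovl5 (-2.02), Hif1a (-2.78), Igf2bp2 (-1.35), Impact (-2.73), Kdm4c (-0.60), Kif20a (-1.79), Lss (-1.88), Mtf1 (-1.45), Pdk1 (-2.28), Pfkp (-0.0776), Pim2 (-3.72), Pola1 (-2.69), Psmd5 (-0.23), Scd2 (-0.29), Slc27a2 (-1.35), Slc7a6 (-2.05), Tdg (-0.17), Tet1 (-0.30), Tet2 (-0.60), Tfcp2l1 (-2.08), Tjp1 (-0.92), Usb1 (-0.73) and Zfp975 (-0.96). On plate columns 1 to 6 Krt8 stood at -1.07, on columns 7 to 12 Tjp1 at -0.0919. Leaving out 1 cell gave -0.46 to 2.51 for Krt8 and -0.22 to 1.06 for Tjp1. The cause was not tested.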
